A study of Mus musculus with 36 samples.

Results

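The 9 mouse genes Dusp1, Dusp2, Dusp4, Dusp5, Dusp6, Dusp8, Dusp10, Dusp14 and Dusp16, which encode MAP kinase phosphatases, were followed through hippocampal slices of a mouse amyloid model. They were chosen by gene symbol among the 55421 mouse Ensembl gene identifiers of the deposited count table, and each symbol matched 1 identifier. All 9 passed the filter on low counts, with between 19 counts (Dusp2) and 7786 counts (Dusp8) in a sample.

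The wild-type mice were C57BL/6 (WT), and the T41B mice carried the Thy1-hAPP Lond/Swe transgene of Line 41, in which the Thy1 promoter, active mainly in neurons, drives human APP with the London and Swedish mutations. Both genotypes were given vehicle or BD10-2 (PTX-BD10-2 in some labels), which partially activates TrkB and TrkC, receptors for neurotrophins, by oral gavage for 3 months, between 13 and 16 months of age. Slices of the right hippocampus then received theta-burst stimulation, a pattern used to induce long-term potentiation, or a sham procedure as long as the stimulation, and were frozen straight away. The stimulation was given 3 times, each made of 10 bursts, with 4 pulses per burst (100 Hz) and 200 ms from burst to burst. The sex of the mice is not given in the sources used here.

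The groups, for sham and for stimulated slices alike, held slices of 4 WT and 4 T41B mice under vehicle, and 3 WT and 5 T41B mice under BD10-2. There were 36 libraries from 18 mice, and 14 mice gave both a sham and a stimulated slice. For 4 slices, 2 libraries carried the same labels and were added, which left 32 samples. Library totals ran from 11597555 to 28125842 expected counts, with a median of 18082415. The same-label libraries differed in CPM (a gene's count relative to its library's total, here before the TMM scaling that all other CPM values carry) by up to 1.77 times, for Dusp2 in the stimulated slice of Mouse1592 (9.52 and 16.8 CPM). The sham slice of Mouse1565 came next, with 8.78 and 13.6 CPM of Dusp10. The Dusp2 and Dusp10 calls given below held when the deeper library alone was used for these slices. Markers of choroid plexus, a tissue next to the hippocampus, summed to over 50 CPM in 6 vehicle samples (112 to 1190 CPM): the stimulated slices of Mouse1509 and Mouse1513 and both slices of Mouse1551 and Mouse1553. Leaving them out kept 2 samples each in the WT stimulated, T41B sham and T41B stimulated groups under vehicle. Calls of members that changed without these 6 samples are given with the values found then.

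MAP kinases (ERK, JNK and p38) are switched on by phosphorylation of a threonine and a tyrosine in the activation loop. The dual-specificity MAP kinase phosphatases remove both phosphates and so end the signal, and several of their genes are themselves transcribed when the kinases are active. In neurons, ERK signalling follows synaptic activity and neurotrophin receptors and takes part in lasting synaptic change. The family is usually ordered by where the proteins act and on which kinase. Dusp1, Dusp2, Dusp4 and Dusp5 encode nuclear, inducible enzymes, of which DUSP5 acts on ERK. Dusp6 encodes the cytoplasmic ERK phosphatase. Dusp8, Dusp10 and Dusp16 encode enzymes that act mainly on JNK and p38, and Dusp14 encodes a small atypical enzyme without the kinase-binding domain of the others.

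Each gene was placed in GRCm38, the build named in the submitters' processing notes, with the GENCODE M21 annotation. Dusp2 lay at chr2:127336159-127338376 on the plus strand, Dusp10 at chr1:184013302-184075636 (plus), Dusp1 at chr17:26505590-26562128 (minus), Dusp16 at chr6:134715468-134792625 (minus) and Dusp5 at chr19:53529109-53542431 (plus). Dusp8 lay at chr7:142079490-142095843 (minus), Dusp4 at chr8:34807297-34819894 (plus), Dusp6 at chr10:99263231-99267489 (plus) and Dusp14 at chr11:84048041-84069261 (minus). Annotated genes overlapped Dusp1 (4 genes, among them Ergic1 on the opposite strand), Dusp5, Dusp8, Dusp10 and Dusp16 (1 gene each, on the opposite strand). The libraries were made with a stranded kit, but the strand setting of the counting is not given in the sources used here, so whether reads from the stretches these genes share were separated is not known. No annotated gene overlapped Dusp2, Dusp4, Dusp6 or Dusp14.

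The RefSeq table of promoters (GRCm38.p6) matched 8 of the 9 members, all except Dusp4. The 250 bases before the start are printed for the 5 members called higher after stimulation in at least 1 of the comparisons below (an adjusted p under 0.05 in edgeR's quasi-likelihood test), so that genes that moved together can be compared, and for Dusp8, which was not called but holds the same element as Dusp1. Capitals mark matches, on either strand, to the cyclic AMP response element (CRE, TGACGTCA), its half-site (TGACG), an AP-1 motif (TGANTCA), an NF-kB motif (GGNNTTTCC) and the CArG box of serum response factor. A full CRE also holds the half-site on both strands. RefSeq and GENCODE place the start of several of these genes at different bases.
Dusp2, chr2:127335909-127336158, plus strand: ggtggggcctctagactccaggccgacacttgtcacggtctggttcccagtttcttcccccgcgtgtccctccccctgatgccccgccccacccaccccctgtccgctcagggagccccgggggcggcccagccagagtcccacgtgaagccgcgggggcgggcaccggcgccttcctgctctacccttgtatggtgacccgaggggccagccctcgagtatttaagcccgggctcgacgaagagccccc
Dusp10, chr1:184034131-184034380, plus strand: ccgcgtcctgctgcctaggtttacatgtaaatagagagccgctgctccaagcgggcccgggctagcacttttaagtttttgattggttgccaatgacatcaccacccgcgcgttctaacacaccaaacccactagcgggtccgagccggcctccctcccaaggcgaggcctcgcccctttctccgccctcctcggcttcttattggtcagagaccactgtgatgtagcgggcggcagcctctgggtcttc
Dusp16, chr6:134792629-134792878, minus strand: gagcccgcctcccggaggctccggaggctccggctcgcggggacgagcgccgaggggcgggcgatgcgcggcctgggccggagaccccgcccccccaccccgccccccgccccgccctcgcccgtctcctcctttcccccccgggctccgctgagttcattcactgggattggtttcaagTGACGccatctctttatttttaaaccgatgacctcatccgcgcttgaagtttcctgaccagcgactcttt
Dusp1, chr17:26508473-26508722, minus strand: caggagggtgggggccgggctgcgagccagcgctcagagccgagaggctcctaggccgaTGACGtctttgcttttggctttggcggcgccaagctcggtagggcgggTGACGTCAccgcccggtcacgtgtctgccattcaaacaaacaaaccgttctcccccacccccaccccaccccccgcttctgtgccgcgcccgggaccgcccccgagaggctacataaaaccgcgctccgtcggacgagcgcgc
Dusp5, chr19:53528895-53529144, plus strand: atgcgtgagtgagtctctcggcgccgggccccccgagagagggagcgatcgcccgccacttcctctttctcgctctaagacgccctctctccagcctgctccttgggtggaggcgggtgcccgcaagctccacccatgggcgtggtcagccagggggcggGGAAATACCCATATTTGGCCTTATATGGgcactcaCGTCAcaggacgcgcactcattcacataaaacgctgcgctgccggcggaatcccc
Dusp8, chr7:142095285-142095534, minus strand: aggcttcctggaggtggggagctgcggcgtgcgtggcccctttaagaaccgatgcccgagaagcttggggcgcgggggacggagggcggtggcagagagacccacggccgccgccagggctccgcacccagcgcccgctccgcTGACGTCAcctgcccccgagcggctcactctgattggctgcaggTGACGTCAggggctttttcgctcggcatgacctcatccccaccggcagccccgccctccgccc

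A full CRE was found once in the Dusp1 window, ending 136 bases before the start, and at 2 places in the Dusp8 window, against 1.55% of 32851 RefSeq promoters of that length. Half-sites were found in Dusp1, Dusp5, Dusp8 and Dusp16, and in 17.8% of all promoters. The CArG box was found only in Dusp5 among the 8 windows, with 2 neighbouring matches, and in 1.47% of all promoters. The first of these shares 1 base with the NF-kB match of Dusp5. NF-kB matches occurred in Dusp5 and Dusp6 and in 4.93% of all promoters, and the AP-1 motif occurred in 0 of the 8 windows and in 6.75% of all promoters. The Dusp2 and Dusp10 windows, of the 2 genes with the largest response to stimulation, held no match to these motifs. Dusp2 was 70.4% and Dusp10 59.6% G or C, against a median of 52.4% over all promoters. These matches are descriptions of the sequence; binding was not measured.

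Levels were compared between members per kilobase of exon. In sham slices the median was 31.4 CPM per kb for Dusp8, 20.6 for Dusp1, 15.8 for Dusp6, 11.2 for Dusp5, 8.89 for Dusp4, 7.67 for Dusp14, 3.46 for Dusp10, 3.22 for Dusp16 and 0.878 for Dusp2. Neighbours in this order overlapped in their ranges over the 16 sham samples, with 3 exceptions. Dusp6 (12.8 to 19.8 CPM per kb) stood just above Dusp5 (5.10 to 12.6), Dusp14 (6.32 to 12) above Dusp10 (2.77 to 5.34), and Dusp16 (2.53 to 4.36) above Dusp2 (0.651 to 1.66). In stimulated slices the upper 5 kept their places, Dusp10 moved to 8.72 and Dusp2 to 7.16 CPM per kb, on either side of Dusp14 at 7.71, and Dusp16 was lowest at 4.68.

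**Figure D1:**
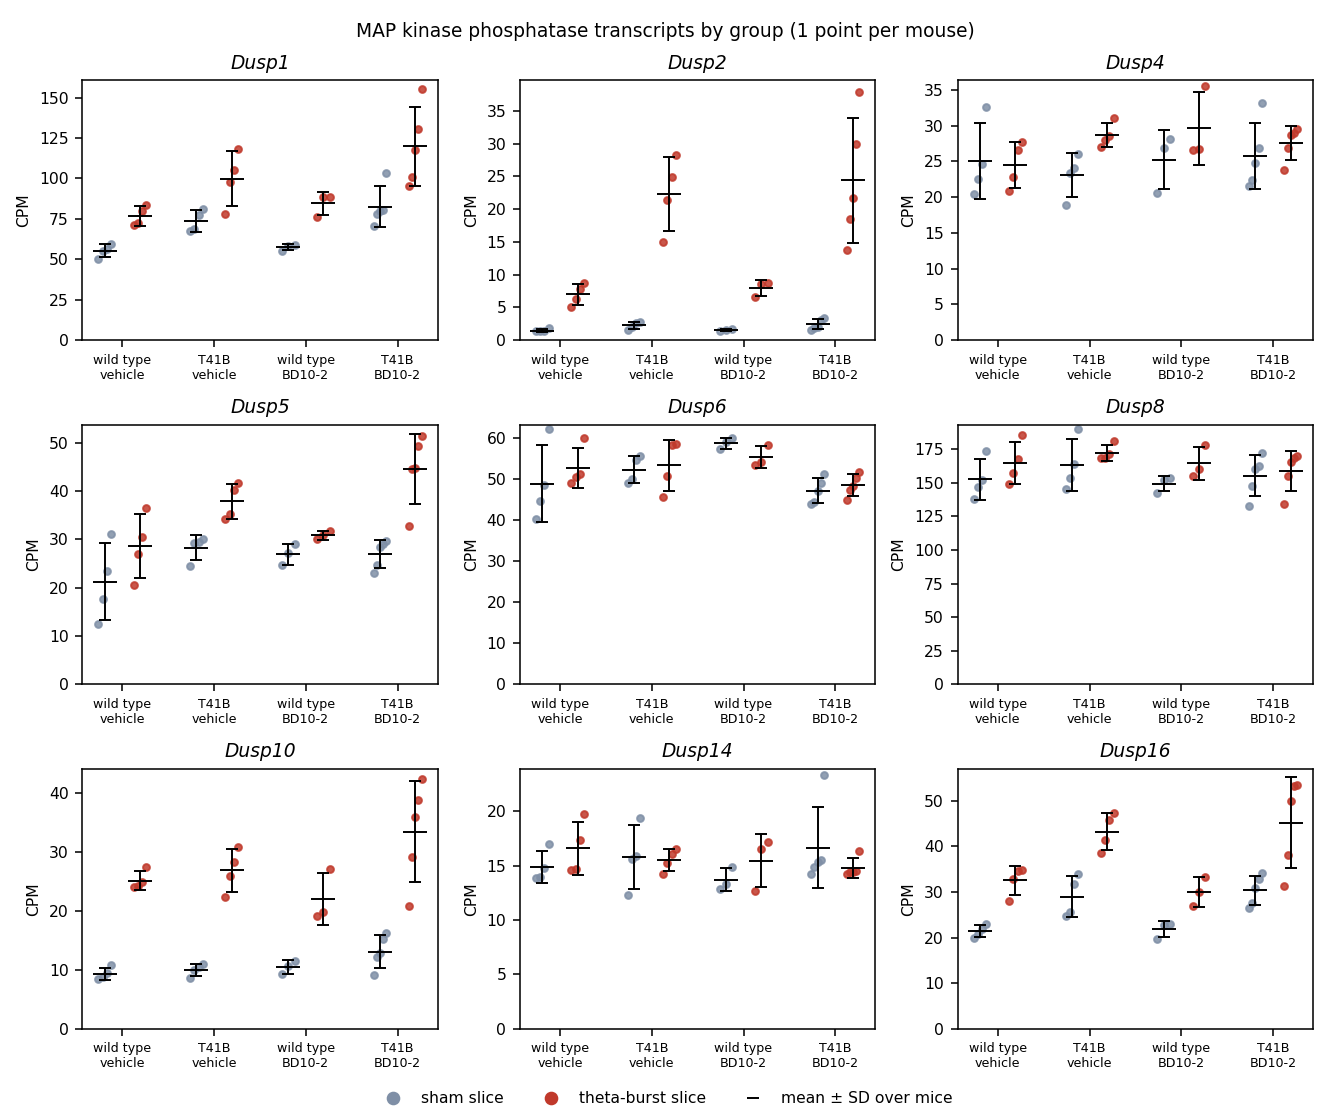
CPM of the 9 members (y axes, linear from 0) in the 8 groups, with 1 point per mouse and the mean ± SD. Dusp2 and Dusp10 were higher in each stimulated group than in its sham group without overlap, while Dusp4, Dusp6, Dusp8 and Dusp14 stayed within narrow ranges.

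The first question was which phosphatase genes differed in RNA between stimulated and sham slices. Dusp1, Dusp2 and Dusp10 rose in all 4 combinations of genotype and treatment, and Dusp16 rose in 3 of them. Dusp5 rose in T41B mice under BD10-2. Dusp2 moved most, with means about 5 times higher in WT and 10 times higher in T41B slices. No member fell. In the same comparisons 5, 5, 5 and 6 of 6 microglia markers were called lower and 3, 3, 0 and 3 of 5 astrocyte markers higher, in the order WT vehicle, T41B vehicle, WT BD10-2 and T41B BD10-2; their part in these results was not tested.

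Against the background of all 19477 genes tested, 4 of 9 members were called higher after stimulation in WT mice under vehicle, where 8.21% of all genes were called higher and 4.1% lower. The count was again 4 of 9 in T41B mice under vehicle, with 11.7% of all genes called higher and 9.82% lower. Under BD10-2, 3 of 9 were called in WT mice (all genes, 6.29% higher and 2.58% lower) and 5 of 9 in T41B mice (13.3% higher and 9.52% lower). The median log2 fold change of the 9 members was 0.43, 0.42, 0.23 and 0.54 in these comparisons, against -0.01, -0.05, -0.01 and -0.04 over all genes. With the mouse as a random block, which takes account of the average correlation between slices of the same animal, the counts were 5, 6, 4 and 5 of 9. Without the 6 samples rich in choroid plexus markers they were 5, 3, 3 and 5. Over all genes the random block called 4137, 6307, 3114 and 6106, and the fit without those samples 2557, 1186, 1922 and 4746, where the first fit called 1599, 2283, 1225 and 2600 higher and 798, 1912, 502 and 1855 lower. The 4 comparisons share no sample.

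Dusp2, a nuclear phosphatase best known from activated immune cells, was the member with the lowest level in sham slices. Under vehicle, the WT sham slices held 1.3, 1.37, 1.82 and 1.33 CPM and the WT stimulated slices 7.78, 6.34, 5.10 and 8.73 CPM. The T41B sham slices held 2.00, 2.62, 1.59 and 2.73 CPM and the stimulated ones 14.9, 21.4, 28.2 and 24.9 CPM. All stimulated slices stood above all sham slices, and the T41B stimulated slices stood above the WT ones. Under BD10-2, the WT values were 1.69, 1.57 and 1.35 CPM in sham and 6.53, 8.56 and 8.77 CPM in stimulated slices. The T41B values were 2.06, 3.32, 3.06, 1.90 and 1.59 CPM in sham and 37.9, 30.02, 18.6, 21.7 and 13.8 CPM in stimulated slices. Sham and stimulated slices again did not overlap in either genotype. The group means were 4.8 and 10.0 times higher after stimulation under vehicle, in WT and T41B mice, and 5.17 and 10.2 times higher under BD10-2. The fitted log2 fold changes were 2.25 ± 0.30 (SE; adjusted p = 3.06e-06), 3.31 ± 0.28 (7.52e-10), 2.35 ± 0.32 (7.7e-06) and 3.35 ± 0.25 (2.02e-11), in the same order.

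Dusp10, a phosphatase of JNK and p38, was the second member called in all 4 comparisons at over a 2-fold change. Under vehicle the WT slices held 9.43, 8.43, 10.8 and 8.78 CPM in sham and 24.9, 24.4, 24.03 and 27.5 CPM after stimulation, and the T41B slices 10.4, 8.64, 10.95 and 9.97 CPM against 25.9, 28.4, 30.9 and 22.5 CPM. The means were 2.69 times higher after stimulation in both genotypes. Under BD10-2 the WT slices held 10.6, 11.6 and 9.31 CPM in sham and 19.2, 19.8 and 27.2 CPM after stimulation. The T41B slices held 12.8, 15.3, 16.2, 12.1 and 9.21 CPM in sham and 38.8, 42.4, 36.1, 29.3 and 20.8 CPM after stimulation. Sham and stimulated slices did not overlap in any combination. The log2 fold changes were 1.43 ± 0.18 (SE; adjusted p = 9.85e-07) and 1.43 ± 0.17 (3.87e-07) under vehicle in WT and T41B mice, and 1.07 ± 0.20 (0.000409) and 1.34 ± 0.15 (6.2e-08) under BD10-2.

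Dusp16, which acts on JNK and p38 as well, rose by about 1.5 times. WT slices under vehicle held 20.8, 21.9, 22.95 and 19.98 CPM in sham and 34.6, 34.9, 27.96 and 32.8 CPM after stimulation, and T41B slices 24.7, 33.8, 31.7 and 25.6 CPM against 41.4, 47.2, 45.8 and 38.5 CPM. Neither pair of groups overlapped. The log2 fold changes were 0.60 ± 0.14 (SE; adjusted p = 0.0028) and 0.58 ± 0.13 (0.00213). Under BD10-2 the T41B mice gave 0.57 ± 0.12 (adjusted p = 0.000581), although the stimulated slice of Mouse1592, at 31.3 CPM, lay among the sham slices, which held 26.4 to 34.0 CPM. WT mice under BD10-2 gave 0.46 ± 0.15, which was not called (adjusted p = 0.0622), while their 3 stimulated slices (26.8 to 33.2 CPM) stood above the 3 sham slices (19.8 to 23.1 CPM). With the mouse as a random block, this last value was called (0.41, adjusted p = 0.0349), and with the mouse as a fixed term it was not (0.31, adjusted p = 0.187). It was also called with only the groups compared (0.46, adjusted p = 0.0251) and the deeper library (0.49, adjusted p = 0.0297), and in no other alternative.

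Dusp1, the immediate early member that acts on p38, JNK and ERK, rose by smaller steps from a higher level. In WT mice under vehicle the sham slices held 55.1, 50.1, 56.5 and 59.7 CPM and the stimulated ones 72.7, 71.0, 79.9 and 83.6 CPM. In WT mice under BD10-2 they held 55.3, 58.2 and 58.6 CPM against 76.4, 88.7 and 88.7 CPM, and neither pair of groups overlapped. In T41B mice the values under vehicle were 67.3, 69.0, 77.2 and 81.0 CPM in sham and 98.0, 118.3, 77.9 and 105.2 CPM after stimulation. Under BD10-2 they were 80.1, 78.2, 103.6, 70.5 and 80.7 CPM against 130.6, 155.5, 95.1, 117.9 and 100.7 CPM. Here the groups overlapped: the stimulated slice of Mouse1553 held 77.9 CPM, within the sham range of 67.3 to 81.0 CPM, and the sham slice of Mouse1564 held 103.6 CPM, above the lowest stimulated slice at 95.1 CPM. The log2 fold changes were 0.47 ± 0.13 (SE; adjusted p = 0.0142) and 0.44 ± 0.13 (0.0131) under vehicle in WT and T41B mice, and 0.56 ± 0.15 (0.0139) and 0.54 ± 0.11 (0.000736) under BD10-2. The first 3 of these calls lay near the threshold. The call in WT mice under vehicle was lost without each of Mouse1509, Mouse1513, Mouse1522 and Mouse1524, with log2 values from 0.46 to 0.49 and adjusted p from 0.0511 to 0.0597. That in T41B mice under vehicle was lost without Mouse1510 (0.42, adjusted p = 0.0521) or Mouse1551 (0.32, adjusted p = 0.154). The same call was lost without the samples rich in choroid plexus markers (0.45 ± 0.17, adjusted p = 0.135), a fit with 2 samples left per group. That in WT mice under BD10-2 was lost without Mouse1565 (0.59, adjusted p = 0.0694) or Mouse1571 (0.53, adjusted p = 0.108).

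Dusp5, a nuclear phosphatase specific for ERK, was called only in T41B mice under BD10-2. There the sham slices held 24.7, 29.1, 29.6, 28.5 and 23.1 CPM and the stimulated ones 49.3, 51.5, 32.8, 44.5 and 44.8 CPM, without overlap, at a log2 fold change of 0.73 ± 0.16 (SE; adjusted p = 0.000909). Values in the other 3 combinations were 0.43 ± 0.18 in WT and 0.42 ± 0.18 in T41B mice under vehicle (adjusted p = 0.117 and 0.088) and 0.20 ± 0.20 in WT mice under BD10-2 (adjusted p = 0.624). The WT sham slices under vehicle differed widely, at 12.6, 17.6, 23.5 and 31.1 CPM, while the T41B ones held 24.5, 29.3, 30.03 and 29.4 CPM. With the mouse as a random block, Dusp5 was called under vehicle in WT mice (0.47, adjusted p = 0.0199) and T41B mice (0.41, adjusted p = 0.0156). With the mouse as a fixed term, which compares each slice with its own partner, Dusp5 was called in both too (0.47, adjusted p = 0.0142, and 0.45, adjusted p = 0.00967). In WT mice it was also called without Mouse1522 (0.64, adjusted p = 0.0266) and without the samples rich in choroid plexus markers (0.65, adjusted p = 0.0444).

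The remaining 4 members were not called in any stimulation comparison. Dusp8, the JNK and p38 phosphatase with the highest level, spanned 132.9 to 190.3 CPM over all 32 samples, with log2 fold changes from 0.03 to 0.14. Dusp6, a cytoplasmic ERK phosphatase, spanned 40.2 to 62.0 CPM with log2 fold changes from -0.09 to 0.11. Dusp14 spanned 12.3 to 23.3 CPM and gave -0.17 to 0.18. Dusp4, a nuclear relative of Dusp1, spanned 18.9 to 35.5 CPM and gave -0.03 to 0.31. Their ranges over all samples were thus between 1.43 and 1.9 times, where Dusp2 spanned 1.3 to 37.9 CPM, a range of 29 times. The largest of the Dusp4 values came from T41B mice under vehicle (adjusted p = 0.121), where all 4 stimulated slices (27.04 to 31.1 CPM) stood above the 4 sham slices (18.9 to 26.1 CPM), and it was called with the mouse as a random block (0.32, adjusted p = 0.0355).

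**Figure D2:**
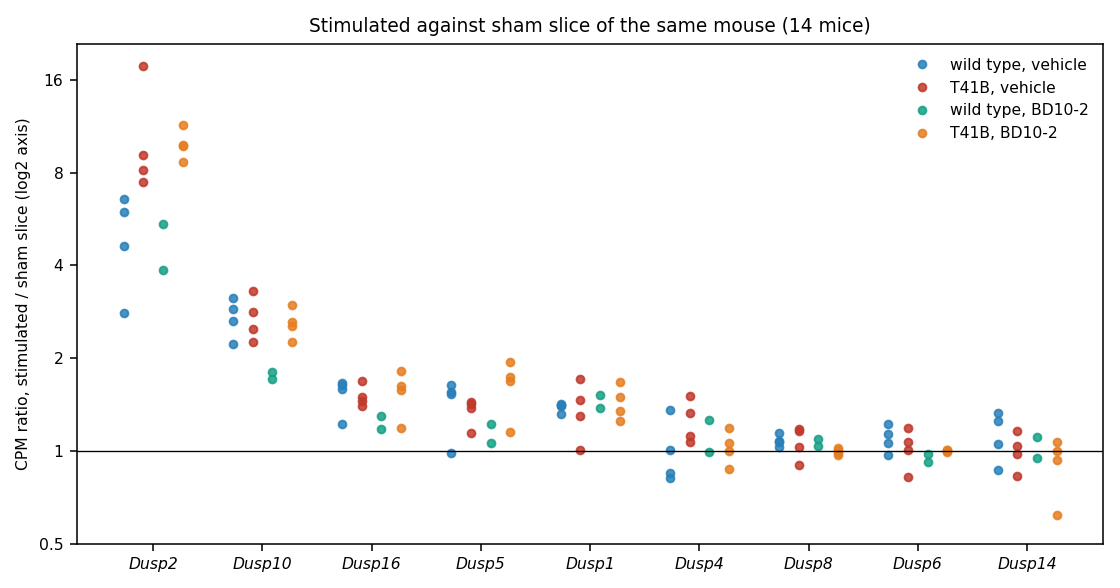
Ratio of CPM in the stimulated slice to CPM in the sham slice of the same mouse (y axis, log2 scale) for each member, with 1 point for each of 14 mice and colours for genotype and treatment. All 14 points of Dusp2, Dusp10, Dusp16 and Dusp1 lie above 1, and the T41B points of Dusp2 start at 7.45, above the highest WT point of 6.57.

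Within mice, the same members stood apart. Dusp2 was higher in the stimulated slice of all 14 mice, by 2.80 to 17.7 times with a median of 7.82. Dusp10 was higher in 14 of 14 (1.71 to 3.29 times), Dusp16 in 14 of 14 (1.18 to 1.81 times) and Dusp1 in 14 of 14 (1.01 to 1.71 times). Dusp5 was higher in 13 of 14 mice, with a median of 1.43. By contrast, Dusp8 was higher in 11 mice, Dusp4 in 9, Dusp6 in 8 and Dusp14 in 7, with medians from 1.01 to 1.07. For Dusp2, the ratio ran from 2.80 to 6.57 in the 4 WT mice and from 7.45 to 17.7 in the 4 T41B mice under vehicle, and from 3.86 to 5.46 in 2 WT mice and from 8.67 to 11.4 in 4 T41B mice under BD10-2.

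The size of this response was compared between genotypes by an interaction term. For Dusp2 the stimulation effect was larger in T41B mice by 1.06 ± 0.41 on the log2 scale under vehicle (SE; unadjusted p = 0.0157, adjusted p = 0.507) and by 1.0 ± 0.40 under BD10-2 (unadjusted p = 0.018, adjusted p = 0.963). Neither passed the threshold after adjustment over all genes, and neither passed in any alternative (adjusted p from 0.172 to 0.957 under vehicle and from 0.163 to 1 under BD10-2). No gene of the table was called in either interaction by edgeR (0% under vehicle and 0% under BD10-2), with 1683 and 847 genes at an unadjusted p under 0.05, whereas DESeq2 called 1 and 19 genes and no member. Other fits also called genes but no member: under vehicle 5 with batch as a term and 3 with the mouse as a fixed term, and, under BD10-2, 2 with no filter, 6 with the deeper library, 6 with batch as a term, 5 with the random block, 1 without the samples rich in choroid plexus markers and 79 without Mouse1592. Among the members, unadjusted p under 0.05 was reached by Dusp2 alone under vehicle and by Dusp2 and Dusp5 (0.53 ± 0.26, unadjusted p = 0.0474) under BD10-2.

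The second question was whether the phosphatase genes differed between T41B and WT mice. Dusp2 was higher in stimulated T41B slices under both treatments. Dusp1 and Dusp16 were higher in T41B mice in sham and stimulated slices under BD10-2, and Dusp10 in stimulated slices under BD10-2. In sham slices under vehicle no member was called. The edgeR fit called no member lower, although several alternatives called Dusp6 lower in sham slices under BD10-2. Of the 6 microglia markers, edgeR called 5, 2, 4 and 6 higher in the T41B samples, in vehicle sham, vehicle stimulated, BD10-2 sham and BD10-2 stimulated slices, and 2, 2, 2 and 5 of 5 astrocyte markers higher; their part in these results was not tested. These comparisons use the same samples as those of stimulation.

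By count, 0 of 9 members were called higher in T41B mice in sham slices under vehicle, where 5% of all genes were called higher and 1.24% lower. Of the 9, 3 members (Dusp1, Dusp5 and Dusp16) reached an unadjusted p under 0.05 there, as did 4162 of all genes, and DESeq2 called 2 members and 1604 genes. In stimulated slices under vehicle 1 of 9 was called (all genes, 4.74% higher and 1.05% lower). Under BD10-2, 2 of 9 were called in sham slices (4.29% higher and 1.14% lower) and 4 of 9 in stimulated slices (8.2% higher and 2.36% lower). The counts rested on few mice. In vehicle sham slices Dusp1 was called without Mouse1510 or Mouse1524, Dusp16 without Mouse1510 or Mouse1579, and Dusp5 without Mouse1522, and in vehicle stimulated slices Dusp1 was called without Mouse1553 (adjusted p from 0.0213 to 0.0439). Over all genes, 2065 were called in vehicle sham slices without Mouse1510, 1534 without Mouse1524, 1222 without Mouse1579 and 865 without Mouse1522, where all samples gave 973 higher and 242 lower. In BD10-2 sham slices the count fell to 0 without Mouse1565, Mouse1571 or Mouse1590 and to 1 without Mouse1557, Mouse1563 or Mouse1564. The genes called fell too, to 577, 598 and 484 for the first 3 mice, and were 989, 1084 and 777 for the others, where all samples gave 836 higher and 223 lower. In BD10-2 stimulated slices Dusp2 alone remained without Mouse1565, with 1053 genes called, where all samples gave 1598 higher and 460 lower. The members' median difference was 0.10, 0.23, 0.28 and 0.50, against 0.00, -0.03, 0.01 and -0.02 over all genes.

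For Dusp2 the stimulated slices of T41B mice held 3.20 times the WT mean under vehicle (22.4 ± 5.69 against 6.99 ± 1.6 CPM; SD, n = 4 each) and 3.07 times under BD10-2 (24.4 ± 9.58 against 7.95 ± 1.24 CPM; n = 5 and 3). The groups did not overlap, and the log2 differences were 1.68 ± 0.25 (SE; adjusted p = 4.66e-05) and 1.61 ± 0.26 (7.46e-05). In sham slices the differences were 0.62 ± 0.33 and 0.61 ± 0.31, with overlapping groups and no call (adjusted p = 0.27 and 0.291). Within batches, where 1 or 2 mice of each genotype shared a batch identifier, the stimulated difference was 1.55 and 1.51 under vehicle and 1.43 under BD10-2. The 4 within-batch differences in sham slices ran from 0.13 to 1.04.

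Dusp1 was higher in T41B mice by 0.53 ± 0.13 in sham (SE; adjusted p = 0.0152) and 0.50 ± 0.13 in stimulated slices (adjusted p = 0.0118) under BD10-2. Under vehicle the differences were 0.41 ± 0.13 and 0.38 ± 0.13, neither called (adjusted p = 0.0524 and 0.0803). The T41B sham slices under vehicle, at 67.3 to 81.0 CPM, nevertheless stood above the WT ones, at 50.1 to 59.7 CPM. The vehicle sham difference was called with DESeq2 (adjusted p = 0.0298), no filter (0.0485), a minimum count of 30 (0.0465) and only the groups compared (0.0386). It was also called without Mouse1510 (0.0363) or Mouse1524 (0.0439). The vehicle stimulated one was called with DESeq2 (0.0387) and without Mouse1553 (0.0213). Neither was called in any other alternative. Within batches the Dusp1 difference ran from 0.25 to 0.46 in sham and from 0.30 to 0.36 in stimulated slices. With batch as a term the differences under BD10-2 were 0.35 and 0.37 and neither was called (adjusted p = 0.118 and 0.0655). Both were also lost without Mouse1565 (adjusted p = 0.0823 and 0.104), the sham one without Mouse1571 (0.0611) or Mouse1590 (0.0632), and the stimulated one when only the groups compared were fitted (0.0774).

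Dusp16 was higher in T41B mice by 0.47 ± 0.14 in sham (SE; adjusted p = 0.0433) and 0.59 ± 0.14 in stimulated slices (adjusted p = 0.0044) under BD10-2, and by 0.44 ± 0.14 and 0.41 ± 0.13 under vehicle (adjusted p = 0.0518 and 0.0665, not called). T41B and WT slices did not overlap in 3 of the 4 comparisons. In the fourth, stimulated slices under BD10-2, the T41B slice of Mouse1592 (31.3 CPM) fell below the highest WT slice (33.2 CPM). The sham call under BD10-2 was lost with batch as a term (0.29, adjusted p = 0.115), with the mouse as a random block (0.43, adjusted p = 0.071), with no filter on low counts (0.45, adjusted p = 0.0738) and without any of Mouse1557, Mouse1563, Mouse1564, Mouse1565, Mouse1571 and Mouse1590 (adjusted p from 0.0669 to 0.225). The stimulated call was lost without Mouse1565 (adjusted p = 0.0571) and when only the groups compared were fitted (adjusted p = 0.0722). The vehicle sham difference was called with DESeq2 (adjusted p = 0.0357), a minimum count of 30 (0.0477), the deeper library (0.035) and without Mouse1510 (0.0252) or Mouse1579 (0.0412). The vehicle stimulated one was called with DESeq2 (0.0362), only the groups compared (0.0421) and the deeper library (0.0439). Neither was called in any other alternative. Within batches the Dusp16 difference ran from 0.11 to 0.42 in sham and from 0.23 to 0.62 in stimulated slices.

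Dusp10 differed by 0.59 ± 0.17 in stimulated slices under BD10-2 (SE; adjusted p = 0.0238), where 33.5 ± 8.57 CPM in T41B mice (n = 5) stood against 22.1 ± 4.42 CPM in WT mice (n = 3), with overlap. It was lost without Mouse1563, Mouse1564, Mouse1565, Mouse1570 or Mouse1571 (adjusted p from 0.054 to 0.177) and when only the groups compared were fitted (adjusted p = 0.132), and the difference within the batch that holds both genotypes there was 0.73. Under vehicle the differences were 0.09 ± 0.18 in sham and 0.10 ± 0.17 in stimulated slices (adjusted p = 0.795 and 0.843). Dusp5 gave 0.53 ± 0.18 in stimulated slices under BD10-2 (adjusted p = 0.0614), without overlap (32.8 to 51.5 against 30.01 to 31.8 CPM), and lay near the threshold in other fits. It was called with the mouse as a random block (0.50, adjusted p = 0.0379), DESeq2 (0.0311), RLE scaling (0.0495), a minimum count of 30 (0.0477), only the groups compared (0.04), the deeper library (0.045) and without Mouse1570 (0.0308). It was not called with batch as a term (0.42, adjusted p = 0.0848), with no filter (0.0801), without the samples rich in choroid plexus markers (0.0572) or without any other single mouse (0.068 to 0.187). Dusp6 was the one member with all T41B slices below all WT slices under BD10-2. Its sham slices held 43.9 to 51.2 CPM in T41B and 57.2 to 59.8 CPM in WT mice (-0.32 ± 0.10, adjusted p = 0.0567), which was called with the mouse as a random block (adjusted p = 0.0456), DESeq2 (0.0289), a minimum count of 30 (0.0485), the deeper library (0.0278) and only the groups compared (0.0185), and was not called with batch as a term (0.124). No call of Dusp6 was made there with RLE scaling, with no filter, without the samples rich in choroid plexus markers or when any single mouse was left out. Under vehicle the Dusp6 difference was 0.10 ± 0.10 in sham slices. Dusp4, Dusp8 and Dusp14 gave -0.12 to 0.28 over the 4 comparisons.

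**Figure D3:**
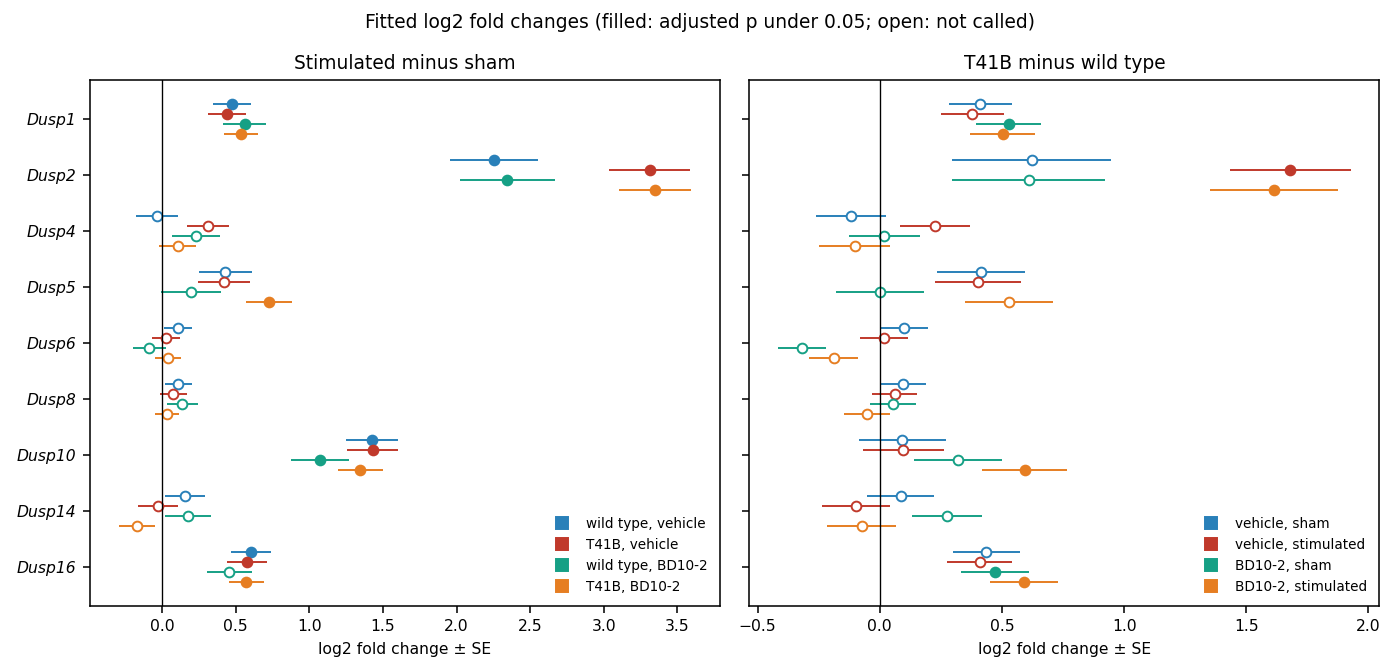
Log2 fold change ± SE (x axes) of each member for stimulated minus sham slices (left) and T41B minus WT mice (right), each in 4 combinations, with filled points where the edgeR adjusted p was under 0.05. Dusp2 reaches 3.35 after stimulation in T41B mice under BD10-2, and Dusp4, Dusp6, Dusp8 and Dusp14 have open points throughout.

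The third question was whether BD10-2 treatment changed the phosphatase genes. No member was called in any of the 4 treatment comparisons, and log2 differences ran from -0.19 to 0.40. Over all genes edgeR called none between BD10-2 and vehicle: 0% in WT sham, 0% in WT stimulated, 0% in T41B sham and 0% in T41B stimulated slices. At an unadjusted p under 0.05 there were 373, 1090, 431 and 760 genes, and DESeq2 called 0, 23, 0 and 0 genes, none of them a member. Without Mouse1522 or Mouse1524, edgeR called 21 and 26 genes in WT stimulated slices and no member. It also called 1 gene in WT sham slices without Mouse1524, and 1 in T41B stimulated slices without the samples rich in choroid plexus markers, again no member. Each batch held a single treatment, so batch and treatment cannot be told apart. The largest value was Dusp10 in T41B sham slices, at 13.1 ± 2.77 CPM under BD10-2 (SD, n = 5) and 10.0 ± 0.991 CPM under vehicle (n = 4), a difference of 0.40 ± 0.17 (SE; unadjusted p = 0.0251, adjusted p = 1). Dusp6 in WT sham slices (0.27 ± 0.11, unadjusted p = 0.0169) and Dusp1 in T41B stimulated slices (0.26 ± 0.12, unadjusted p = 0.0374) were the other members at an unadjusted p under 0.05. BD10-2 and vehicle groups overlapped for every member in all 4 comparisons. For Dusp2 the 4 differences were 0.10 ± 0.35, 0.19 ± 0.27, 0.09 ± 0.28 and 0.12 ± 0.22, in WT sham, WT stimulated, T41B sham and T41B stimulated slices.

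The effect of BD10-2 on the response to stimulation, tested as an interaction, was 0.04 ± 0.36 for Dusp2 in T41B mice and 0.09 ± 0.44 in WT mice on the log2 scale. No member reached an unadjusted p under 0.05 in either, and over all genes the share called was 0% in T41B and 0% in WT mice, with 527 and 338 genes at an unadjusted p under 0.05 and 1 and 0 genes called by DESeq2. Without the samples rich in choroid plexus markers, edgeR called 1 gene in T41B mice and no member.

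The rest of the MAP kinase pathway was followed through lists of genes, whose counts stand beside the shares of all genes called: 8.21%, 11.7%, 6.29% and 13.3% higher and 4.1%, 9.82%, 2.58% and 9.52% lower after stimulation. Of 15 other dual-specificity phosphatases, 12 were tested, and after stimulation 1, 0, 0 and 1 were called higher and 0, 4, 0 and 1 lower, in the order WT vehicle, T41B vehicle, WT BD10-2 and T41B BD10-2. Dusp7, a cytoplasmic ERK phosphatase close to Dusp6, was called higher in WT mice under vehicle (0.30 ± 0.09) and T41B mice under BD10-2 (0.32 ± 0.08). In T41B mice under vehicle 4 were called lower, led by Dusp15 (-0.76 ± 0.19) and Dusp23 (-0.74 ± 0.20), and Dusp15 was lower under BD10-2 too (-0.63 ± 0.17). The list median was between -0.22 and -0.03 in the 4 comparisons.

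Among 14 MAP kinases, 3, 4, 3 and 3 were called higher and 1, 3, 1 and 2 lower, in the same order. Mapk6, an atypical MAP kinase, rose by 0.67, 0.69, 0.52 and 0.69, and Mapk7, which encodes ERK5, rose by 0.34, 0.39, 0.61 and 0.36. Mapk9, which encodes a JNK, fell by 0.22, 0.34, 0.26 and 0.35. No listed gene was called by edgeR for a difference in its response between genotypes. Mapk3, the ERK1 gene, was called lower in stimulated than in sham slices of T41B mice under vehicle (-0.37 ± 0.10).

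Of 20 kinases that act above the MAP kinases, 19 were tested, and 6, 7, 7 and 7 were called higher and 0, 2, 0 and 2 lower. Map3k8, which activates the ERK branch and is itself known as an early gene, rose by 1.31, 1.43, 1.05 and 1.47. Map2k3, an activating kinase of p38, rose by 0.94, 0.71, 0.85 and 0.90. Araf (-0.28 and -0.24) and Map3k4 (-0.27 and -0.25) fell in the T41B comparisons. Of 10 kinases activated by MAP kinases, 4, 4, 3 and 5 were called higher and 0, 3, 0 and 3 lower. Mapkapk2, the main p38 target kinase, rose by 0.91, 1.16, 0.94 and 1.21, and its relative Mapkapk3 by 1.73, 1.04, 1.27 and 1.26.

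Other inhibitors of the pathway, Sprouty and Spred proteins and the receptor feedback inhibitor Errfi1 among them, were the next list. Of 15 listed, 13 were tested, and 2, 5, 1 and 4 were called higher and 0 lower. Spry2 rose by 0.87, 1.16, 0.75 and 1.05. Errfi1 rose in 3 of the comparisons, by 0.68 in WT and 0.51 in T41B mice under vehicle and by 0.75 in T41B mice under BD10-2. Spry4 rose in T41B mice, by 0.62 and 0.60, with 0.26 ± 0.10 and -0.04 ± 0.12 in WT mice.

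Genes commonly read as ERK transcriptional output, which include Dusp4 and Dusp6 and 2 of the Sprouty genes, split. Of 15, 5, 6, 5 and 7 were called higher and 1, 2, 1 and 3 lower. Fosl1, an AP-1 subunit, rose by 2.91, 2.54, 2.71 and 2.82, and Ier3 by 2.00, 2.21, 1.96 and 2.11. Egr1, an immediate early transcription factor, fell by 0.40, 0.47, 0.60 and 0.67. Etv1 and Etv4, transcription factors downstream of ERK, were lower by 0.69 and 0.83 in T41B mice under BD10-2. Etv1 was called lower in T41B mice under vehicle as well. The list median stayed between 0.02 and 0.11, and neither Dusp4 nor Dusp6 was called.

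**Figure D4:**
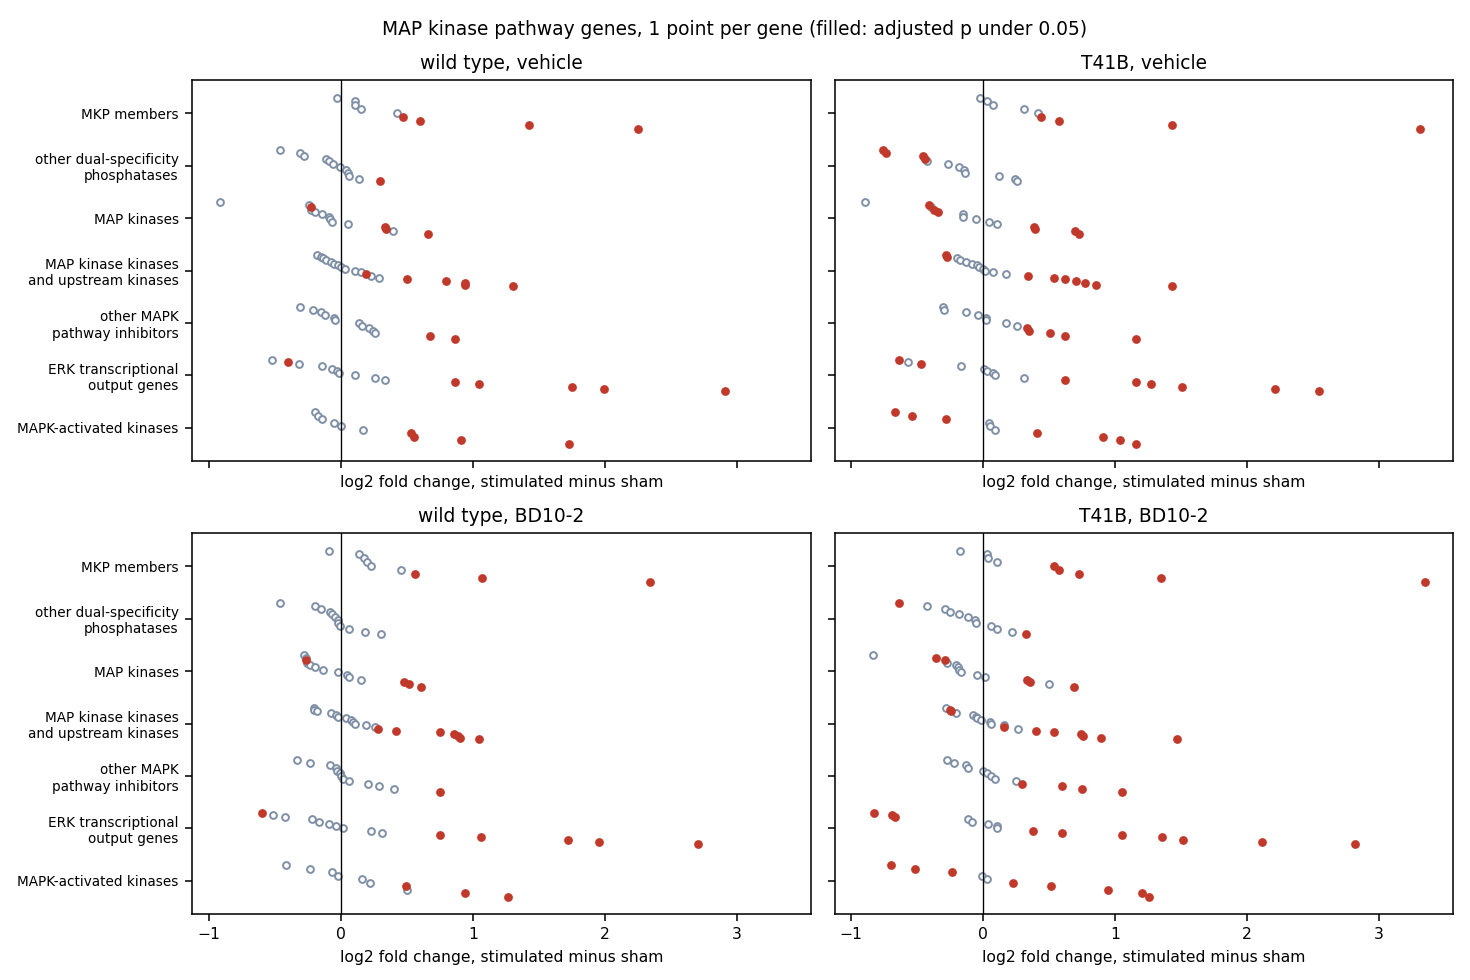
Log2 fold change of stimulated minus sham slices (x axes) for each tested gene of 7 MAP kinase lists (rows), 1 panel per genotype and treatment, with filled points where the edgeR adjusted p was under 0.05. Fosl1, at 2.91 in WT mice under vehicle, and Dusp2, at 3.31 and 3.35 in T41B mice, are the points farthest to the right.

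Between genotypes, 2, 3, 2 and 2 of the 19 upstream kinases and 3, 2, 3 and 2 of the 10 kinases activated by MAP kinases stood higher at the threshold for T41B mice and 0 lower, in the order vehicle sham, vehicle stimulated, BD10-2 sham and BD10-2 stimulated, against 5%, 4.74%, 4.29% and 8.2% of all genes higher and 1.24%, 1.05%, 1.14% and 2.36% lower. Other lists moved both ways: 0, 0, 1 and 1 of 14 MAP kinases were called higher and 0, 1, 1 and 2 lower, 0, 0, 0 and 1 of 13 other inhibitors higher and 1, 0, 2 and 1 lower, and 3, 2, 2 and 5 of 15 ERK output genes higher and 0, 1, 2 and 1 lower. Map3k8 was higher in T41B mice in all 4 comparisons, by 1.01 and 1.13 in sham and stimulated slices under vehicle and by 0.94 and 1.37 under BD10-2, as was Map2k3 (0.68, 0.45, 0.54 and 0.58). Mapkapk3 (1.32, 0.62, 0.99 and 0.99), Mapkapk2 (0.58, 0.84, 0.65 and 0.91) and Ier3 (0.71, 0.93, 0.81 and 0.96) were called in all 4 as well. Among the listed genes called lower in T41B mice were Etv1 in 3 comparisons (-0.92 ± 0.16 in stimulated slices under vehicle, -0.58 ± 0.16 and -0.84 ± 0.16 under BD10-2), Spred3 in both sham comparisons (-0.41 ± 0.09 and -0.49 ± 0.09) and Mapk9 in both stimulated ones (-0.30 ± 0.07 and -0.26 ± 0.07). Of the 12 other dual-specificity phosphatases tested, 0 were called by edgeR in the 4 genotype comparisons.

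By the correlation of mean log2(CPM + 1) over the 8 groups, the genes most like each member were found among 16182 others averaging at least 1 CPM. They were Helz2 (r = 0.9998) and Gm49730 (0.9994) for Dusp2, Polr3d (0.995) and Bmpr1a (0.993) for Dusp10, Cdc42ep4 (0.998) and Nln (0.997) for Dusp16, Icosl (0.996) and Card19 (0.993) for Dusp1, and Calr (0.995) and Nbl1 (0.991) for Dusp5. The steady members gave Gmeb1 (0.976) and Mybl2 (0.973) for Dusp4, Fam120a (0.947) for Dusp6, Rtn2 (0.987) and Dmwd (0.978) for Dusp8, and Poc1a (0.980) and Prmt5 (0.936) for Dusp14. Helz2 ran from 3.3 to 7.5 in its group means of log2(CPM + 1). With 8 points that share mice and libraries, and this many candidates, these values are descriptions.

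Markers of cell types moved with the same comparisons, and in bulk tissue fewer cells of a type and less RNA per cell cannot be told apart. All 6 neuron markers passed the filter, with sums of 1850 to 3870 CPM over the 32 samples. After stimulation 1, 0, 2 and 2 of them were called lower, and in T41B mice 1, 2, 2 and 0. The neuron sums under vehicle were 3200 to 3870 CPM in WT sham, 2830 to 3230 CPM in WT stimulated, 2470 to 3260 CPM in T41B sham and 2160 to 2910 CPM in T41B stimulated slices, and under BD10-2 3140 to 3710, 2450 to 3000, 2510 to 2940 and 1850 to 2720 CPM. The sum of 6 microglia markers (Tmem119, P2ry12 and Cx3cr1 among them) was 216 to 277 CPM in WT sham and 98.7 to 150 CPM in WT stimulated slices under vehicle, and 415 to 695 CPM against 206 to 264 CPM in T41B slices. Under BD10-2 it was 234 to 290 CPM against 112 to 137 CPM in WT and 479 to 676 CPM against 216 to 374 CPM in T41B slices, so that sham and stimulated slices did not overlap in any combination. The sum of 5 astrocyte markers was 1000 to 1210 CPM in WT sham, 1450 to 1790 CPM in WT stimulated, 2100 to 3080 CPM in T41B sham and 2820 to 3490 CPM in T41B stimulated slices under vehicle. Under BD10-2 these 4 ranges were 1110 to 1320, 1370 to 1600, 2380 to 3240 and 2950 to 4820 CPM, so that the T41B sums stood above the WT sums throughout. The markers were not scaled before summing, and Gfap had the highest median, 1390 CPM (305 to 3250 CPM), against 53.3 to 582 CPM for the others. In vehicle sham slices the log2 differences of the 5 astrocyte markers between T41B and WT mice ran from 0.12 to 2.06, with a median of 0.31. The part of these shifts in the phosphatase results was not tested.

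**Figure D5:**
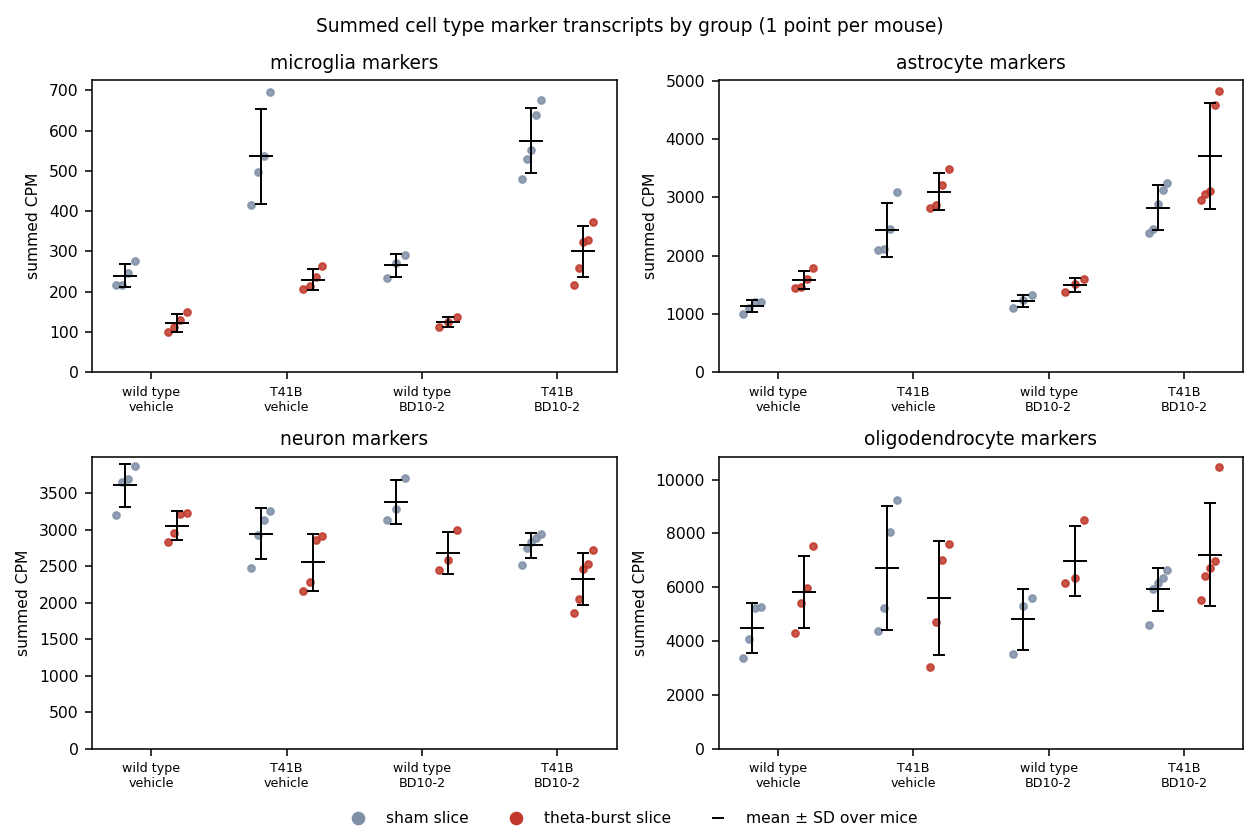
Summed CPM of the markers of 4 cell types (y axes, linear from 0) in the 8 groups, with 1 point per mouse and the mean ± SD. Microglia markers are lower in stimulated than in sham slices without overlap, for example 98.7 to 150 against 216 to 277 CPM in WT mice under vehicle, while the oligodendrocyte sums overlap between most groups.

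Blood cell markers were low. The 5 T and B cell markers summed to 0 to 0.432 CPM in WT and 0.227 to 1.78 CPM in T41B samples, and the 5 neutrophil and monocyte markers to 0 to 0.433 and 0.11 to 1.2 CPM. The sums of both lists overlapped between genotypes in 3 of the 4 comparisons. In stimulated slices under BD10-2, where 4 members were called higher in T41B mice, they did not (T and B cell markers, 0.0591 to 0.203 CPM in WT and 0.377 to 1.15 CPM in T41B; neutrophil and monocyte markers, 0.0811 to 0.248 and 0.353 to 1.2 CPM). Each T or B cell marker was at 0 in 5 to 24 of the 32 samples and each neutrophil or monocyte marker in 7 to 31. Of the first list 1 passed the filter on low counts, with log2 differences between T41B and WT mice of 2.45 to 4.01 and no call (adjusted p from 0.064 to 0.137), and of the second 0 passed. The part of these markers in the differences of Dusp2 and the other members was not tested. The sums of 5 endothelial and pericyte markers overlapped between sham and stimulated slices in all 4 combinations and those of 4 oligodendrocyte markers in 3. Without the 6 samples rich in choroid plexus markers, Dusp2 and Dusp10 were called after stimulation in all 4 combinations, and the counts of members called higher in T41B mice were 0, 1, 2 and 4. Over all genes that fit called 252, 230, 1261 and 2176 between genotypes, where the fit of all samples called 973, 923, 836 and 1598 higher and 242, 205, 223 and 460 lower. The fit without the 6 samples kept 2 samples each in WT stimulated, T41B sham and T41B stimulated slices under vehicle.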

How the data were processed

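RNA of hippocampal slices was sequenced in 36 libraries, from 200 ng of total RNA with ribosomal depletion and a stranded kit per the labels' protocols. The values deposited by the authors are expected counts from RSEM, estimates that need not be whole (5.69% of cells hold decimals), without scaling. The submitters' processing notes name cutadapt 1.8.1, STAR 2.7.6a, RSEM 1.3.1, featureCounts 1.6, SAMtools 1.11 and GRCm38.p6 (mm10), with no role or order. The annotation release and the strand setting are not given in the sources used here. RSEM divides reads among similar transcripts.

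Groups, mouse numbers and batch identifiers were read from the labels. Expected counts were rounded, same-label libraries were added, and filterByExpr (minimum count 10) kept 19477 genes. edgeR 4.0.16 with R 4.3.3 fitted 1 coefficient per group over all 32 samples, with TMM scaling (factors 0.91 to 1.063) and the quasi-likelihood F test. Within each comparison, p-values of all genes were adjusted together (Benjamini-Hochberg), and an adjusted p under 0.05 was a call. SE is the log2 fold change divided by the square root of F. CPM uses the TMM-adjusted library size, and CPM per kb divides by merged exon length in GENCODE M21. The fit was tested on simulated data.

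The block is the mouse, whose number in the labels ties a sham slice to a stimulated slice of the same animal. Deviations of the 14 same-mouse pairs from their group means correlated at 0.32 on average (0.06 to 0.6), against -0.09 for 52 pairs of different mice. It was fitted as a random effect with limma 3.58.1 (voom, consensus correlation 0.339) and as a fixed term in edgeR. The other alternatives were DESeq2 1.42.0, RLE scaling, no filter, a minimum count of 30, only the groups compared, the deeper same-label library, batch as a term, and leaving out each mouse. Leaving out 6 samples rich in choroid plexus markers was added after seeing the data.

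The named genes are the 9 members, up to 2 called genes per direction and list with the largest change among those averaging at least 1 CPM, and the 2 genes most like each member. A few genes these rules would name are not reported here. The members and lists were chosen with earlier results of these data known.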

Additional observations from a re-analysis of the deposited data

Results flagged for a closer look

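Single samples that stood apart from their group were sought in the 54 combinations of member and group with 4 or 5 mice, by the gap to the nearest other sample over the group's range (Dixon's 95% value). Chance marks about 1 in 20, and 4 were marked. Dusp2 in the WT sham slice of Mouse1522 under vehicle was 1.82 CPM, above 1.3 to 1.37 CPM in the other 3 mice. Dusp5 in the T41B sham slice of Mouse1510 under vehicle was 24.5 CPM, below 29.3 to 30.03 CPM in the others. Dusp14 in the T41B sham slice of Mouse1564 under BD10-2 was 23.3 CPM, above 14.2 to 15.6 CPM in the other 4. Dusp14 in the T41B stimulated slice of Mouse1570 under BD10-2 was 16.4 CPM, above 14.3 to 14.5 CPM. Dusp14 was not called in any comparison.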

How the results depend on the processing

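Of 2394 recomputed single-member values, 0 called values changed sign, 33 lost and 43 gained a call, 41 uncalled values moved by more than their SE, and 2277 stayed. Signs changed in 138 values called in neither setting. The Dusp2 and Dusp10 stimulation calls and the Dusp2 calls between genotypes in stimulated slices held in every alternative run, at log2 values of 0.83 to 3.43. The median log2 fold change over all genes lay at most 0.058 from 0 in any alternative and comparison. The counts of members called after stimulation stayed within 1.5 times. With the mouse as a block they were 5, 6, 4 and 5 (random effect) and 5, 6, 3 and 5 (fixed term; 3873, 5486, 1268 and 4501 genes called), against 4, 4, 3 and 5; leaving out each mouse gave 3 to 4, 3 to 4, 2 to 3, and 5, with 1230 to 1718, 2648 to 3654, 760 to 1307 and 3195 to 4398 genes called. The genotype counts moved, as did the genes called over all genes, given in parentheses. In vehicle sham slices 0 became 2 with DESeq2 (1604), 1 with no low-count filter (1024), 2 with a minimum count of 30 (1258), 1 with only the groups compared (537), 1 with the deeper library (1192), and 0 to 2 without single mice (556 to 2065). In vehicle stimulated slices 1 became 3 with DESeq2 (1321), 2 with only the groups compared (810), 2 with the deeper library (1166), and 1 to 2 without single mice (678 to 1167). In BD10-2 sham slices 2 became 1 with no filter (857), 0 with batch as a term (841), and 0 to 2 without single mice (484 to 1084), and in BD10-2 stimulated slices 4 became 2 with only the groups compared (1240), and 1 to 4 without single mice (1053 to 2441). The cause was not tested, apart from the fewer samples that 2 of these alternatives hold by construction. Treatment and interaction counts stayed at 0. With batch as a term the treatment comparisons could not be fitted. The smallest depth behind a member value was 19 counts, for Dusp2 in a sham slice, and groups of 3 to 5 mice limit the rest.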
